A study of Mus musculus with 16 samples.

Results

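A set of 10 genes of the unfolded protein response (UPR) and of protein folding in the endoplasmic reticulum (ER) were followed across sorted splenic dendritic cells (DCs) of WT and TRIM33-deficient mice. They were taken by name. Xbp1, Ern1, Atf6, Atf4 and Ddit3 encode sensors and transcription factors, and Hspa5, Hsp90b1, Sdf2l1, Dnajb9 and Herpud1 encode ER proteins that these factors induce. All 10 genes, of 18232 in the series, were listed in both expression tables and had a mean of at least 1 TPM (transcripts per 1 M transcripts, a level that accounts for transcript length). The WT mice were Trim33 fl/fl and the cKO mice Trim33 fl/fl Itgax-Cre, where the promoter of the CD11c gene drives Cre and Trim33 is deleted in cells that use it. They gave 16 RNA-seq libraries. Floxed alleles were carried by both genotypes, the Cre transgene by the cKO mice alone, and the C57BL/6 mice were 6 to 8 weeks old. Plasmacytoid DCs (pDCs, CD11c+ SiglecH+) gave 3 WT and 3 cKO libraries, conventional type 1 DCs (cDC1s, CD24+ CD172a-) gave 2 and 2, and conventional type 2 DCs (cDC2s, CD24- CD172a+) gave 3 and 3. Each library was made from cells of several mice, more of them for a cKO than for a WT library. No treatment was given.

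When unfolded proteins accumulate in the ER, 3 sensors in its membrane respond: IRE1 (encoded by Ern1), ATF6 and PERK (encoded by Eif2ak3). IRE1 removes a short intron from Xbp1 mRNA, which then encodes an active transcription factor, and ATF6 is cut in the Golgi to release another. PERK slows translation while ATF4 is translated, and ATF4 induces amino acid supply genes and Ddit3 (CHOP). pDCs carry an extended ER that serves interferon secretion, and cDC1s are known to keep IRE1 and XBP1 active without infection. A TPM value of a whole gene adds spliced and unspliced Xbp1 mRNA and shows nothing of IRE1 activity.

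The stretches before the start sites of 4 ER protein genes are shown because the UPR is known to act on such promoters. They hold 250 bases each, 5′ to 3′ on the strand of the gene, from RefSeq on GRCm38.p6. Capitals mark the ER stress response element (ERSE, the letters CCAAT and CCACG with 9 bases between them) in Hspa5 and Hsp90b1 and the shorter ERSE-II (ATTGG and CCACG with 1 base between them) in Herpud1, which are bound by ATF6 and XBP1 together with NF-Y. Sdf2l1 is shown as a gene without either. They lie at chr2:34771840-34772089 (Hspa5, plus strand), chr10:86705445-86705694 (Hsp90b1, minus strand), chr8:94386179-94386428 (Herpud1, plus strand) and chr16:17132384-17132633 (Sdf2l1, minus strand).
Hspa5: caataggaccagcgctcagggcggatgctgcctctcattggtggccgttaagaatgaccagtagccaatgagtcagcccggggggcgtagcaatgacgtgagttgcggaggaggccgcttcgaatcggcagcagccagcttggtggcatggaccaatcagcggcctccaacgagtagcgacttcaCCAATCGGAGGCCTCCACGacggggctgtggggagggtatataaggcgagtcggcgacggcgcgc
Hsp90b1: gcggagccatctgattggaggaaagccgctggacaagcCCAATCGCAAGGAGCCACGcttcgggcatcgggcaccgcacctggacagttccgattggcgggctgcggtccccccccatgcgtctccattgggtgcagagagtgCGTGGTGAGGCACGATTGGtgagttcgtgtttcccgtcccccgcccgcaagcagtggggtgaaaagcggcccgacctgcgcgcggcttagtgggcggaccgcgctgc
Herpud1: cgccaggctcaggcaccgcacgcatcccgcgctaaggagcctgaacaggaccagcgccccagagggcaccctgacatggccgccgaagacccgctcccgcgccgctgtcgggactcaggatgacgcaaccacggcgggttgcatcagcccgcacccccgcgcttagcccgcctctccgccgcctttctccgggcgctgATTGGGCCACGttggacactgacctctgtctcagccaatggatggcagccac
Sdf2l1: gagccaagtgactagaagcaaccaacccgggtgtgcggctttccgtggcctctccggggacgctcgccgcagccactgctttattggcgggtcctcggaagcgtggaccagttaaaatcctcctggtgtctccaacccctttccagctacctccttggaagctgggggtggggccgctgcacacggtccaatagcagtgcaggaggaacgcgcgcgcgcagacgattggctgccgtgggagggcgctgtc

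Both strands were searched in the 250 bases before and the 50 after each start site. Hspa5 held 1 ERSE, from 65 to 47 bases before its start. Hsp90b1 held 2, 1 on each strand, from 212 to 194 and from 107 to 89 bases before it. Among all 32851 promoters of the table, 0.119% held an ERSE and 0.0365% an ERSE-II. The UPR element TGACGTGG, held by 0.676% of all promoters, was in none of the 9 member promoters of the table, which has no entry for Atf6. The amino acid response element TGATGNAAN, held by 3.95% of all promoters, was found in Herpud1. The letters of the ERSE and ERSE-II were not in the windows of Xbp1, Ern1, Atf4, Ddit3, Sdf2l1 and Dnajb9. The last bases of the ERSE and of the UPR element share the letters CGTGG on 1 strand or the other, so that 1 stretch can match both. A match is a description of the sequence and not a sign of binding.

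In GRCm38.p6 Xbp1 (gene ID 22433) lies on chromosome 11 from 5520641 to 5525993 and Ern1 (78943) on chromosome 11 from 106397620 to 106487796. Atf6 (226641) lies on chromosome 1 from 170704457 to 170868585, Atf4 (11911) on chromosome 15 from 80255184 to 80257545 and Ddit3 (13198) on chromosome 10 from 127290793 to 127296291. Of the ER protein genes, Hspa5 (14828) lies on chromosome 2 from 34772090 to 34776529, Hsp90b1 (22027) on chromosome 10 from 86690841 to 86705444 and Sdf2l1 (64136) on chromosome 16 from 17130138 to 17132383. Dnajb9 (27362) lies on chromosome 12 from 44205897 to 44210068 and Herpud1 (64209) on chromosome 8 from 94386429 to 94395371. In the GENCODE vM21 annotation 10.3% of the exon bases of Hsp90b1 overlap 1810014B01Rik, a gene on the opposite strand, and the counting was not stated to use strand.

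Library depths, estimated from the spacing of low values, ran from 18.0 to 20.1 M reads, at which 1 TPM on a 2000-base transcript corresponds to 16.2 to 21.2 reads. Trim33 lay lower in every cKO than in every WT library of its subset. Its difference on the log2 scale was −0.68 in pDCs (adjusted p 0.0301), −1.02 in cDC1s (adjusted p 3.49e-04) and −1.17 in cDC2s (adjusted p 1.26e-04) by limma, so in pDCs it missed the threshold used here. The labelled subsets carried their markers: 6 pDC genes summed to 12781 to 14741 TPM in pDCs and to 125 to 251 TPM in cDCs. The 7 cDC1 markers were all called higher and the 7 cDC2 markers all called lower in WT cDC1s against WT cDC2s. Of other cell types, T and NK cell markers summed to at most 7.21 TPM in any library and neutrophil markers to at most 69.7 TPM. Erythroid markers summed to 248 to 3880.4 TPM in 15 libraries and to 7234 TPM in WT cDC2 library 2, and their part in the results was not tested. Differences are of log2(TPM + 1). Genes are named as called where limma gave an adjusted p of 0.01 or less (Benjamini-Hochberg, all genes tested) with a difference of 0.5 or more in size. In bulk RNA, fewer cells of a kind and less RNA per cell cannot be told apart.

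**Figure D1:**
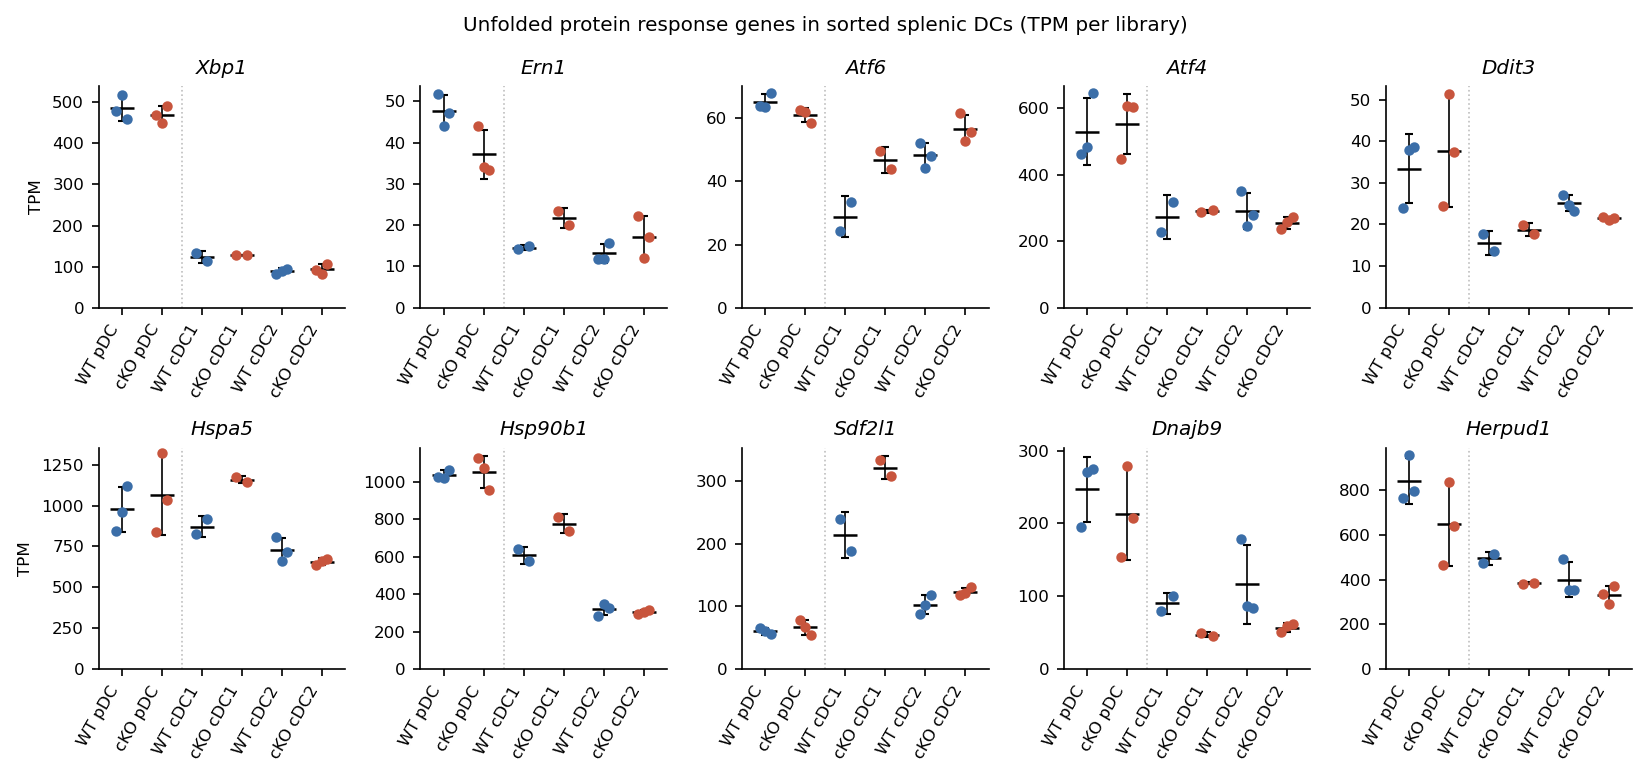
TPM (linear axis from 0) of the 10 genes in each of the 16 libraries, by group, with WT in blue and cKO in red, the group mean as a bar and the SD as an error bar. The dotted line parts pDCs and cDCs, which come from separate tables. Xbp1 lies between 449.8 and 518 TPM in pDCs and between 81.4 and 133 in cDCs, while Sdf2l1 has its highest values in cDC1s.

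The question of the secretory load of pDCs was addressed first by setting their levels beside those of the cDCs. WT pDCs held more Xbp1, Ern1, Atf6, Hsp90b1, Dnajb9 and Herpud1 than WT cDCs, and less Sdf2l1. The 2 tables were deposited apart, so no test was made between them, and rescaling to their 16617 shared genes, which hold nearly all of the TPM of each library, changed no order of the groups given here. In 7 of the 10 genes every WT pDC library lay above every WT cDC library, against 36.0% of the 11674 genes compared, and in 1, Sdf2l1, every one lay below (18.2% of all genes).

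Xbp1, the factor that drives ER expansion in secretory cells, was at 479, 518 and 459.7 TPM in WT pDCs and at 468, 449.8 and 491 TPM in cKO pDCs. WT cDC1s held 133 and 113 TPM and cKO cDC1s 129 and 128 TPM. WT cDC2s held 81.6, 90.4 and 94.7 TPM and cKO cDC2s 92.6, 81.4 and 106 TPM. Thus the order was pDCs, cDC1s, cDC2s, with no overlap of subsets and overlap of the genotypes in each. The mean of WT pDCs, 486 ± 29.8 TPM (SD, n = 3), was 4.73 times that of the 5 WT cDC libraries.

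Ern1, which encodes the kinase and nuclease IRE1, was at 51.7, 44.0 and 47.1 TPM in WT pDCs and at 43.9, 34.0 and 33.4 TPM in cKO pDCs. In cDC1s it was at 14.1 and 15.0 TPM (WT) and 23.4 and 20.1 TPM (cKO). In cDC2s it was at 11.9, 11.8 and 15.8 TPM (WT) and 22.2, 12.1 and 17.2 TPM (cKO). WT pDCs stood 3.47 times above WT cDCs, and the 4 cDC groups followed each other with overlapping ranges. Rtcb, the ligase that rejoins cut Xbp1 mRNA, had another order, with 171 to 182 TPM in WT pDCs and 241.8 and 241.9 TPM in WT cDC1s.

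Atf6 was nearly level in pDCs, at 63.8, 63.5 and 68.0 TPM (WT) and 62.5, 62.0 and 58.6 TPM (cKO). cDC1s held 24.2 and 33.3 TPM in WT and 49.7 and 43.8 TPM in cKO libraries. cDC2s held 52.3, 44.2 and 48.2 TPM in WT and 61.5, 52.7 and 55.5 TPM in cKO libraries. The WT cDC1 libraries were the lowest of the 16 and overlapped with no other group.

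Atf4 was at 462, 482 and 645 TPM in WT pDCs and 448, 606 and 604 TPM in cKO pDCs. All 10 cDC libraries lay between 227 and 351 TPM, with overlap between neighbouring groups. Its target Ddit3, a factor of the terminal UPR, was low throughout, from 13.5 TPM in a WT cDC1 library to 51.4 TPM in a cKO pDC library. The pDC libraries of Ddit3 spread widely, at 24.0, 37.8 and 38.5 TPM (WT) and 24.3, 51.4 and 37.3 TPM (cKO), and overlapped with those of WT cDC2s.

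Hspa5 (BiP, the main ER chaperone, which also holds the sensors inactive) and Hsp90b1 (GRP94, a folding factor of Toll-like receptors and integrins) were the most abundant of the 10 in pDCs and cDC1s, while in cDC2s the mean of Herpud1 exceeded that of Hsp90b1. Hspa5 was at 847, 961 and 1122 TPM in WT pDCs and 837, 1320.4 and 1035 TPM in cKO pDCs. These ranges overlapped with those of cDC1s, at 824 and 917 TPM (WT) and 1172 and 1142 TPM (cKO). Hsp90b1 was at 1027, 1022 and 1066 TPM in WT pDCs and 1127, 1076 and 958 TPM in cKO pDCs, above every cDC library. WT pDCs exceeded WT cDCs by 2.39 times in Hsp90b1 and by 1.25 times in Hspa5, where the libraries overlapped.

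Sdf2l1 encodes a partner of BiP that joins ER cochaperones, and it ran the other way. WT pDCs held 66.3, 60.3 and 55.3 TPM and cKO pDCs 78.7, 66.8 and 54.4 TPM, all below the lowest cDC library, at 88.3 TPM. The mean of WT pDCs was 0.411 times that of WT cDCs. Dnajb9 (ERdj4, a BiP cochaperone that represses IRE1) was at 196, 271 and 275 TPM in WT and 153, 279 and 208 TPM in cKO pDCs, and Herpud1 (a scaffold of ER-associated degradation) at 767, 958 and 798 TPM in WT and 466, 836 and 639.8 TPM in cKO pDCs. In both genes the lowest pDC library was cKO pDC library 1, and all 3 WT pDC libraries lay above all WT cDC libraries.

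The other ER genes were read from 7 lists, against shares of 36.0% of all genes above and 18.2% below. Every WT pDC library lay above every WT cDC library in 24 of 29 ER export and retrieval genes, 24 of 32 ER import genes, 17 of 28 ER folding genes, 15 of 25 genes of ER-associated degradation (ERAD) and 7 of 8 further sensors and factors, and in 4 of 6 substrates of regulated IRE1-dependent decay (RIDD). The ATF4 and CHOP targets differed in this count, with 6 of 26 above and 7 below. Phgdh, the first enzyme of serine synthesis and an ATF4 target, was at 96.5, 98.4 and 86.3 TPM in WT pDCs and between 9.97 and 16.4 TPM in WT cDCs. Pdia5, a protein disulfide isomerase, was at 54.8, 50.3 and 47.8 TPM in WT pDCs, between WT cDC1s (234 and 241 TPM) and WT cDC2s (6.31, 2.54 and 2.28 TPM).

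Next, cDC1s were compared with cDC2s, the comparison that bears on the tone of the pathway in cDC1s. In WT cells Hsp90b1 and Sdf2l1 were higher in cDC1s, and the sensor Atf6 and the factor Ddit3 were lower. Of the 10 genes 2 were called higher and 2 lower, where 31.7% of the 11411 genes tested were called (10.9% higher, 20.8% lower). The median of all genes was −0.17 and moved to 0.01 with median-of-ratios scaling, under which 3 of the 10 genes were called higher and 0 lower. The share of all genes called under that scaling is not given here.

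Hsp90b1 was at 639 and 575 TPM in WT cDC1s and at 285, 350.3 and 325 TPM in WT cDC2s. The groups did not overlap, and the mean of 607 ± 45 (SD, n = 2) exceeded that of 320.3 ± 32.7 TPM (SD, n = 3) by 0.92 on the log2 scale (SE 0.11, adjusted p 4.90e-05). Sdf2l1, at 239.6 and 188 TPM in WT cDC1s and 88.3, 102 and 119 TPM in WT cDC2s, was higher by 1.05 (SE 0.14, adjusted p 1.49e-04). Both calls held in all 19 alternative fits.

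Atf6 had a difference of −0.74 on the log2 scale (SE 0.14, adjusted p 0.00163), from the values given above. The call was lost without WT cDC1 library 1 (a difference of −0.52, adjusted p 0.0204) and with median-of-ratios scaling (−0.55, adjusted p 0.0116). Ddit3, at 17.7 and 13.5 TPM in WT cDC1s and 27.1, 24.8 and 23.3 TPM in WT cDC2s, differed by −0.66 (SE 0.12, adjusted p 0.00146). Without WT cDC1 library 2 it was at −0.48 (adjusted p 0.0188), and under median-of-ratios and quantile scaling at −0.48 and −0.47, each short of a call. Both genes stayed lower in cDC1s under each of these settings.

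Xbp1 differed by 0.46 (SE 0.13, adjusted p 0.0115) between WT cDC1s and WT cDC2s and was not called, although the 2 cDC1 libraries lay above the 3 of cDC2s. It was called with FPKM (0.52, adjusted p 0.00355), median-of-ratios scaling (0.66, adjusted p 5.28e-04) and quantile normalization (0.55, adjusted p 0.00222). Hspa5, at 824 and 917 TPM against 805, 659.8 and 714 TPM, differed by 0.26 (SE 0.10, adjusted p 0.0546). Ern1 differed by 0.15, Herpud1 by 0.32, Atf4 by −0.10 and Dnajb9 by −0.28, with overlapping libraries and adjusted p values of 0.106 to 0.657. Libraries did not overlap in 6 of the 10 genes, as in 62.3% of all genes.

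**Figure D2:**
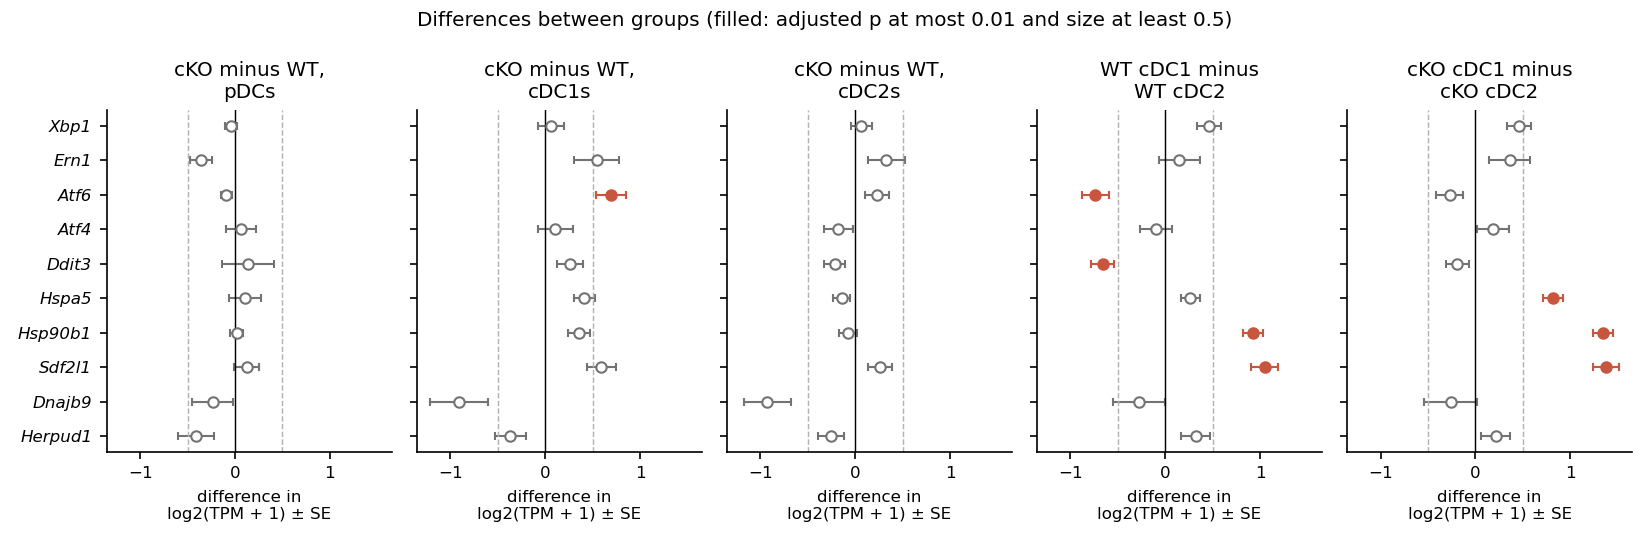
Difference between 2 groups in log2(TPM + 1) with its SE (horizontal axis) for each of the 10 genes (rows) in 5 comparisons, with filled points for called genes and dashed lines at ±0.5. Hsp90b1 and Sdf2l1 are called in both comparisons of cDC1s with cDC2s (0.92 and 1.05 in WT, 1.35 and 1.38 in cKO), Atf6 is called in cKO against WT cDC1s, and no gene is called between the genotypes in pDCs or cDC2s.

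Of the 28 ER folding genes, 15 were called higher and 0 lower in WT cDC1s, with a median of 0.56. The largest difference was that of Pdia5, 5.76 on the log2 scale (SE 0.37, adjusted p 6.97e-07), from the libraries given above. Creld2, a secreted ER stress gene, was at 125 and 96.4 TPM against 38.7, 44.5 and 49.7 TPM (1.30, SE 0.13, adjusted p 2.22e-05). Ero1b, an oxidase that recharges disulfide isomerases, was at 74.3 and 83.8 TPM against 33.5, 34.7 and 32.7 TPM (1.21, SE 0.10, adjusted p 4.26e-06). The calls also took in the chaperones Calr and Hyou1 and the isomerases Pdia3, Pdia4 and Pdia6.

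Of the ER import genes, 10 of 32 were called higher and 0 lower, with a median of 0.37. They are subunits of the Sec61 channel (Sec61a1), of the translocon-associated complex (Ssr2, Ssr3, Ssr4) and of oligosaccharyltransferase (Ddost, Stt3a, Rpn1, Rpn2), with Sec63 and Tmem258. ERAD had 4 higher and 1 lower of 25 (median 0.11), and ER export 5 higher of 29 (median 0.03). Sec24d, a coat subunit of ER exit vesicles, was at 17.4 and 17.9 TPM in WT cDC1s and 4.39, 3.97 and 3.62 TPM in WT cDC2s (1.90, SE 0.14, adjusted p 1.95e-06). Among 7 tested sensors and factors the 1 called was Rtcb, named after its values were seen, with 241.9 and 241.8 TPM against 116, 119.6 and 116 TPM (1.04, SE 0.08).

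The ATF4 and CHOP targets went both ways, with 7 of 27 higher and 5 lower. Ddit4, an inhibitor of mTORC1, was at 20.1 and 11.3 TPM in WT cDC1s and at 112, 228 and 347 TPM in WT cDC2s, a difference of −3.69 on the log2 scale (SE 0.39, adjusted p 2.70e-05). Nupr1, a stress protein, was at 1.02 and 0.51 TPM against 4.86, 11.6 and 6.36 TPM, and Cebpb, a myeloid transcription factor, at 7.22 and 11.5 TPM against 34.8, 35.0 and 49.99 TPM. They differed by −2.22 (SE 0.29, adjusted p 1.40e-04) and −1.99 (SE 0.20, adjusted p 2.07e-05). Slc7a11, a cystine transporter, was at 0.12 and 0.25 TPM in WT cDC1s, about the level of 3 reads, and at 2.40, 3.18 and 2.22 TPM in WT cDC2s. The RIDD substrates had Tapbp, a peptide-loading chaperone, called higher and Hgsnat, a lysosomal enzyme, called lower among 6 tested. Both were named after their values were seen.

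Over the 7 lists 50 of 154 genes were called, or 32.5% against 31.7% of all genes. Of these 43 were higher, which is 27.9% of the list genes against 10.9% of all genes, and 7 lower (4.55% against 20.8%), and without WT cDC1 library 1 there were 33, with 28 higher. Monocyte and macrophage markers moved with this comparison. They summed to 418 to 669.98 TPM in WT cDC1s and to 1380 to 1923 TPM in WT cDC2s, with 8 of 11 called lower and none of the 11 at 0 in WT cDC2s. Their part in the results was not tested.

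In cKO cells the same comparison gave 3 members called higher, Hspa5, Hsp90b1 and Sdf2l1, and 0 lower, where 28.3% of all genes were called (14.5% higher). Hspa5 was at 1172 and 1142 TPM in cKO cDC1s and at 634, 660.4 and 675 TPM in cKO cDC2s, a difference of 0.82 (SE 0.10, adjusted p 1.10e-04). Hsp90b1 was at 811 and 739.99 TPM against 293, 303 and 314 TPM (1.35, SE 0.11, adjusted p 3.86e-06). Sdf2l1 was at 334 and 308 TPM against 118, 121 and 131 TPM (1.38, SE 0.14, adjusted p 2.42e-05). Each of the 3 was called in all 19 alternative fits. The libraries of the subsets did not overlap in 9 of the 10 genes, against 69.2% of all genes. Xbp1 differed by 0.46 (adjusted p 0.0129) and was called without cKO cDC2 library 3 (0.56, adjusted p 0.00763).

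ER folding genes had 19 of 28 called higher in cKO cDC1s. These included all 15 called in WT cells, where 73.2% of all genes called higher in WT cDC1s were also called higher in cKO cDC1s. Of 32 ER import genes 14 were called higher, 9 of them called in WT cells too. Pdia5 was at 194 and 184 TPM in cKO cDC1s and at 2.51, 2.18 and 5.86 TPM in cKO cDC2s (5.48, SE 0.37, adjusted p 1.32e-06). Derl3, a channel component of ERAD, was at 12 and 11.5 TPM against 2.27, 0.82 and 1.35 TPM (2.40, SE 0.23, adjusted p 1.84e-05). The ATF4 and CHOP targets again went both ways, with 14 of 27 called higher and 6 lower. Phgdh was higher in cKO cDC1s by 2.44 (SE 0.18, adjusted p 2.39e-06), while Nupr1 and Ddit4 had differences of −3.16 (SE 0.29) and −3.01 (SE 0.39). Monocyte and macrophage markers summed to 396 to 407 TPM in cKO cDC1s and 2681 to 3503 TPM in cKO cDC2s, with 10 of 11 called lower, and their part in these results was not tested. Both comparisons of the subsets use different libraries, but they share the spread estimated over all 10 cDC libraries. The fit treats cDC1 and cDC2 libraries as unpaired, and whether they came from the same mice was not tested.

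**Figure D3:**
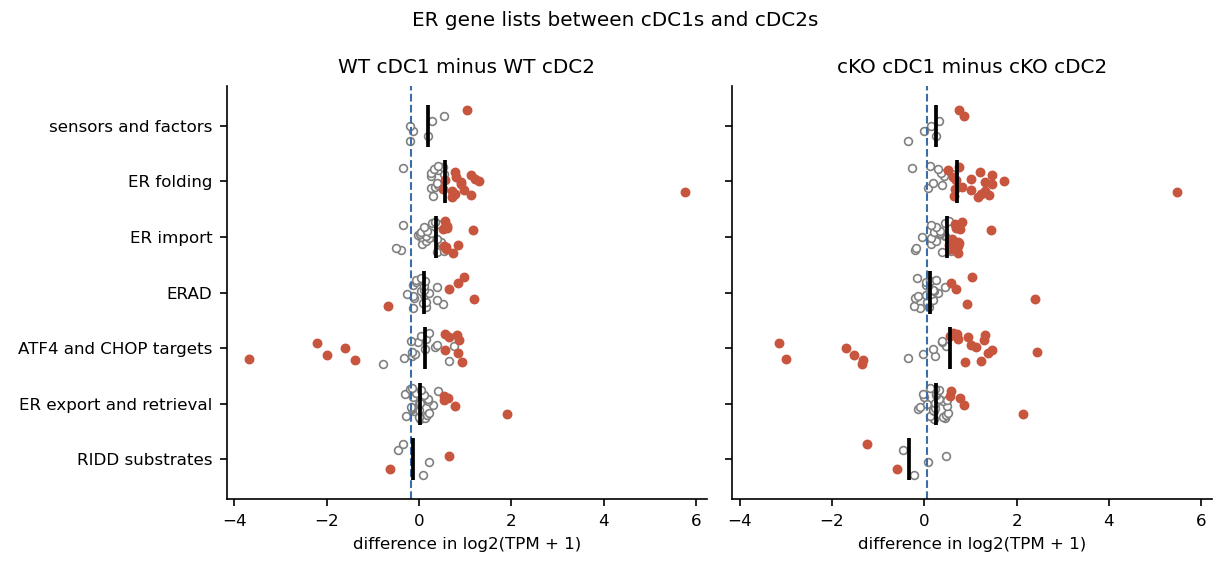
Difference in log2(TPM + 1) between cDC1s and cDC2s (horizontal axis) for the genes of 7 ER and stress lists (rows), in WT cells on the left and cKO cells on the right, with filled points for called genes, a black bar at the median of each list and a dashed line at the median of all genes. The ER folding genes have medians of 0.56 and 0.71, against −0.17 and 0.05 for all genes, and the rightmost point in both panels is Pdia5.

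Whether loss of TRIM33 changes these genes was then read within each subset. In cDC1s the members lay mostly higher in cKO libraries, but only Atf6 was called, and Dnajb9 and Herpud1 lay lower. The call of 1 in 10 compares with 22.4% of all genes (15.8% higher, 6.56% lower). The median over all genes was 0.17 and fell to 0.02 with median-of-ratios scaling, so differences of that size are set by the scaling.

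Atf6 was at 24.2 and 33.3 TPM in WT and 49.7 and 43.8 TPM in cKO cDC1s. Means of 28.8 ± 6.44 in WT and 46.7 ± 4.16 TPM in cKO libraries (SD, n = 2 in both) differed by 0.69 on the log2 scale (SE 0.15, adjusted p 0.00590). The call was lost without WT cDC1 library 1 (adjusted p 0.0492), cKO cDC1 library 1 (0.0575), cKO cDC1 library 2 (0.0203) or cKO cDC2 library 3 (0.0117). It was also lost with median-of-ratios scaling (0.53, adjusted p 0.0289), quantile normalization (0.52, adjusted p 0.0304) and no filter on low genes (adjusted p 0.0121).

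The chaperones missed the threshold. Sdf2l1, at 239.6 and 188 TPM in WT and 334 and 308 TPM in cKO cDC1s, differed by 0.59 (SE 0.15, adjusted p 0.0118), and it was called without WT cDC2 library 1 (adjusted p 0.00717) or 3 (0.00522). Hspa5, at 824 and 917 TPM against 1172 and 1142 TPM, differed by 0.41 (SE 0.11, adjusted p 0.0152). Hsp90b1, at 639 and 575 TPM against 811 and 739.99 TPM, differed by 0.35 (SE 0.12, adjusted p 0.0341). No cKO library of these 3 genes overlapped with a WT library, as in 76.2% of all genes.

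Dnajb9 was at 80.4 and 100.2 TPM in WT and at 49.7 and 44.95 TPM in cKO cDC1s, a difference of −0.91 (SE 0.31, adjusted p 0.0377). In cDC2s it was at 179, 86.2 and 83.6 TPM in WT and at 50.5, 59.2 and 61.6 TPM in cKO libraries (−0.92, SE 0.25, adjusted p 0.0278). The genotypes did not overlap in either subset, and neither difference was called. WT cDC2 library 1 stood far above the other 2, and since the fit shares 1 spread, leaving it out gave a call in cDC1s with the same difference (adjusted p 0.00101). That library also held the highest sum of 14 immediate-early genes, 28936 TPM against 5278 to 14212 TPM in the other 9 cDC libraries. Its Atf3 was at 1156 TPM and its Ppp1r15a, the phosphatase subunit that ends the PERK response, at 834 TPM.

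Herpud1 was at 476 and 515 TPM in WT and 381 and 387 TPM in cKO cDC1s (−0.37, SE 0.17, adjusted p 0.107). In cDC2s it was at 491, 356 and 355 TPM in WT and 337, 290.4 and 371 TPM in cKO libraries (−0.26, SE 0.14, adjusted p 0.212), with overlap. Ern1 differed by 0.54 in cDC1s (SE 0.24, adjusted p 0.0944) and by 0.33 in cDC2s (SE 0.19, adjusted p 0.260). Xbp1 differed by 0.06 in each subset (SE 0.14 and 0.11), and in cDC1s its sign turned under median-of-ratios scaling (−0.11). Atf4, at 227 and 319 TPM in WT and 286 and 293 TPM in cKO cDC1s, overlapped there (0.11, SE 0.19), and Ddit3 did too (0.26, SE 0.14).

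In cDC2s 0 of the 10 genes were called by limma, and 1, Dnajb9, had an unadjusted p under 0.05, against 34.1% of all genes. In all 7.15% of genes were called (3.59% higher, 3.56% lower). Hspa5 was at 805, 659.8 and 714 TPM in WT and 634, 660.4 and 675 TPM in cKO libraries (−0.14, SE 0.09). Ddit3 lay lower in all 3 cKO libraries, at 21.7, 21.1 and 21.5 TPM against 27.1, 24.8 and 23.3 TPM (−0.21, SE 0.11, adjusted p 0.205). Atf6 lay higher in all 3 (0.23, SE 0.13, adjusted p 0.233), and libraries did not overlap in 3 of the 10 genes, against 35.5% of all genes.

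Beyond the members, 26 of 154 tested list genes rose in cKO cDC1s and 0 fell, which is 16.9% higher against 15.8% of all genes. They included 12 of 27 ATF4 and CHOP targets (44.4%, median 0.62) and 7 of 28 ER folding genes (25%, median 0.30). ER import, with 5 of 32 (15.6%, median 0.23), ER export, with 2 of 29 (6.9%, median 0.31), and ERAD, with 0 of 25 (median 0.02), were at or under the share of all genes. With median-of-ratios scaling the 26 became 14 higher and 3 lower, of which 10 higher and 1 lower were ATF4 and CHOP targets. Shares of all genes called under this scaling, or without a library, are not given here. Leaving out WT cDC1 library 1 or 2 gave 13 and 16 calls, and leaving out cKO cDC1 library 1 or 2 gave 11 and 14, all of them higher.

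The 12 targets that rose encode serine and one-carbon enzymes (Phgdh, Psat1, Shmt2), amino acid transporters (Slc7a1, Slc7a5) and aminoacyl-tRNA synthetases. Phgdh rose from 11.1 and 10.9 TPM to 63.2 and 58.1 TPM (2.36, SE 0.20, adjusted p 4.24e-05). Shmt2 was at 39.8 and 38.7 TPM in WT and 115 and 117 TPM in cKO cDC1s (1.54, SE 0.14, adjusted p 7.64e-05). Psat1 was at 29.1 and 29.2 TPM against 78.1 and 81.1 TPM (1.42, SE 0.14, adjusted p 9.71e-05), and Slc7a1 at 11.7 and 14.2 TPM against 39.2 and 32.9 TPM (1.41, SE 0.17, adjusted p 3.04e-04). These 4 calls held in all 20 alternative fits. Differences were positive in 21 of the 27 targets, and 0 were called lower. Ppp1r15a lay lower in cKO cDC1s, at 134 and 142 TPM against 243 and 385 TPM. So did Atf3, at 84.7 and 114 TPM against 160 and 625 TPM, and Sesn2, at 13.5 and 11.1 TPM against 21.4 and 18.4 TPM. Eif2ak3, the gene of the sensor PERK, was at 26.8 and 30.2 TPM in WT and 19.4 and 18.1 TPM in cKO cDC1s and was not called. Mars1, among the synthetases that rose, lies next to Ddit3 on the opposite strand, with 68 shared exon bases, or 3.97% of those of Ddit3. The promoters of 11 of the ATF4 and CHOP targets held the element TGATGNAAN, 35.5% of their promoters against 3.95% of all. Of the 12 targets that rose, 10 had a promoter in the table and 3 of these held the element (Gars, Iars and Tars).

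In cDC2s calls numbered 6 among the list genes, with 5 higher in cKO libraries and 1 lower, which is 3.9% of 154 tested and less than the 7.15% of all genes. Psat1 was at 15.5, 13.8 and 18.5 TPM in WT and 29.8, 33.0 and 27.5 TPM in cKO cDC2s (0.88, SE 0.11, adjusted p 9.27e-04), a call that held in all 19 alternatives. Nupr1 rose by 1.25 (SE 0.26, adjusted p 0.00953), Prdx4, an ER peroxidase, by 0.96 (SE 0.17, adjusted p 0.00404) and Slc7a1 by 0.79 (SE 0.14, adjusted p 0.00494), and Sesn2, an inhibitor of mTORC1, had a difference of −0.73 (SE 0.14, adjusted p 0.00589). These 4 calls were lost in 5 to 13 of the 19 alternatives. The count of 6 fell to 1 without cKO cDC2 library 3, to 2 without WT cDC2 library 1 and to 3 without WT cDC2 library 2, cKO cDC2 library 1 or either cKO cDC1 library.

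**Figure D4:**
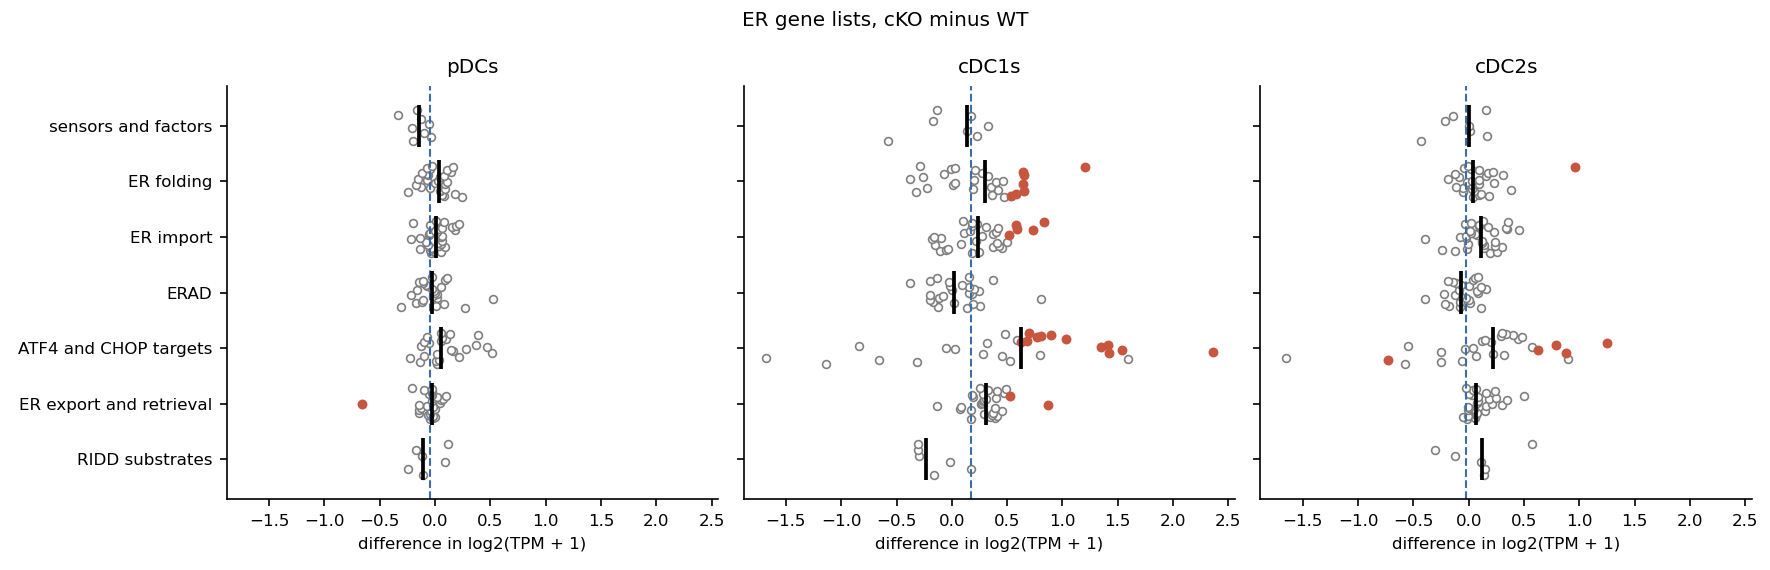
Difference in log2(TPM + 1) between cKO and WT libraries (horizontal axis, shared) for the genes of the 7 lists (rows) in pDCs, cDC1s and cDC2s, with filled points for called genes, a black bar at the median of each list and a dashed line at the median of all genes. Called genes number 1, 26 and 6, and the rightmost point in cDC1s is Phgdh, at 2.36.

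Other gene groups differed between the cDC genotypes as well. Each of the 12 mature DC markers was called lower in cKO cDC1s, with sums of 2113 and 2881 TPM in WT and 485 and 598 TPM in cKO libraries. Sums of 12 cytosolic heat shock genes were 5791 and 5807 TPM in WT and 12298 and 10983 TPM in cKO cDC1s, with 8 called higher, and 8 of 12 cell cycle genes were called higher. Immediate-early genes had 6 of 14 called lower, with sums of 8411 and 13804 TPM in WT and 5278 and 5698 TPM in cKO cDC1s. Subset markers moved too: 3 of 7 cDC1 markers were called lower in cKO cDC1s and 0 higher. Itgae had a mean of 69.9 TPM in WT and 9.86 TPM in cKO, Cadm1 of 194 and 57.5 TPM, and Clec9a of 541 and 214 TPM. Xcr1 was lower but not called (305 and 213 TPM). Irf8 (1737 and 1891 TPM), Cd24a (547 and 687 TPM) and Tlr3 (192 and 225 TPM) had higher means in cKO. In cDC2s 3 of 7 cDC2 markers were called lower and 2 higher in cKO libraries. Monocyte and macrophage sums there were 1380 to 1923 TPM in WT and 2681 to 3503 TPM in cKO libraries, with 3 of 11 called higher. Much of these sums was Lyz2, with means of 821 TPM in WT and 2125 TPM in cKO cDC2s. Of the 11 markers 8 had a positive difference. The means of Adgre1 (182 and 150 TPM), Vcam1 (68.1 and 47.2 TPM) and Cd5l (18.0 and 10.1 TPM) were lower in cKO. In cDC2s heat shock sums were 4910 to 8023 TPM in WT and 9808 to 12634 TPM in cKO libraries. What part these groups had in the values of the ER genes was not tested.

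In pDCs 0 of the 10 genes were called by limma, where 1.05% of all genes were called (0.814% higher, 0.239% lower). In this fit, without the replicate number as a block, only Ern1 had an unadjusted p under 0.05, against 20.8% of all genes. Its WT and cKO libraries, given above, did not overlap, as in 27.5% of all genes. The WT mean of 47.6 ± 3.86 TPM (SD, n = 3) stood above a cKO mean of 37.1 ± 5.90 TPM (SD, n = 3), with a difference of −0.36 (SE 0.12, adjusted p 0.135, and 0.0162 with the replicate number as a block). Herpud1 differed by −0.41 (SE 0.19, adjusted p 0.277, and 0.0326 with the block) with overlapping libraries, and it was lower in the cKO library of all 3 same-numbered pairs. Neither gene was called with the block, and Atf6 differed by −0.09 (SE 0.06) with libraries apart. The other 7 genes overlapped, from Xbp1 at −0.05 (SE 0.06) and Hsp90b1 at 0.02 (SE 0.07) to Dnajb9 at −0.24 (SE 0.22). With the block the SE of Dnajb9 was 0.09 (adjusted p 0.114). The unadjusted limma p values of Dnajb9 (0.0268) and Herpud1 (0.00291) were then under 0.05 too. The share of all genes under 0.05 with the block is not given here, so these have no share to be read against.

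Library 1 was the lowest of its genotype in Atf4, Ddit3, Hspa5, Dnajb9 and Herpud1 in both WT and cKO pDCs. Library 1 of each genotype was the highest in Sdf2l1. The sum of B and plasma cell markers ran from 186 to 233 TPM in WT and from 319.7 to 417 TPM in cKO pDCs. In that list Mzb1, an ER cochaperone named here after its values were seen, was at 99.2 to 122 TPM in WT and 232 to 264 TPM in cKO pDCs. Heat shock sums were 4771 to 6868 TPM in WT and 7041 to 11404 TPM in cKO pDCs, with 0 of 12 genes called. Of 12 cell cycle genes 7 were called higher, with sums of 44.4 to 48.1 TPM in WT and 142 to 289 TPM in cKO pDCs. What part these groups had in the values of the ER genes was not tested in pDCs.

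Among the list genes, 1 was called in pDCs. Mcfd2, a cargo receptor subunit for ER export, fell from 49.2, 43.4 and 52.4 TPM to 30.5, 29.9 and 29.98 TPM (−0.66, SE 0.08, adjusted p 0.00659). The call was lost without WT pDC library 1 or 3 or any 1 of the 3 cKO pDC libraries, with adjusted p values of 0.0200 to 0.0360. With the replicate number as a block 2 were called, Mcfd2 (adjusted p 0.00146) and Psat1, at 21.5, 18.2 and 18.4 TPM in WT and 30.7, 28.9 and 24.7 TPM in cKO pDCs (0.51, SE 0.07, adjusted p 0.00543).

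Differences between the genotype effects of cDC1s and cDC2s were tested in the same limma fit, where 2.56% of all genes were called. None of the 10 genes was called. An unadjusted p under 0.05 was found for 30.7% of all genes and for 4 of the 10. The largest difference of the 4 was that of Hspa5, whose effect was higher in cDC1s by 0.55 (SE 0.14, adjusted p 0.0381). Ddit3 differed by 0.47 (SE 0.18, adjusted p 0.104), Atf6 by 0.47 (SE 0.20, adjusted p 0.146) and Hsp90b1 by 0.43 (SE 0.15, adjusted p 0.0902), where the median of all genes was 0.22. Sdf2l1, Atf4 and Ern1 differed by 0.33, 0.29 and 0.21, and Herpud1 by −0.11, with adjusted p values of 0.281 to 0.745. The effect on Dnajb9 differed by 0.01 (SE 0.39) and that on Xbp1 by −0.000542 (SE 0.18). Of the lists, only Phgdh was called, with an effect higher in cDC1s by 2.61 (SE 0.25, adjusted p 4.17e-04).

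Genes with the most similar pattern were found by Pearson r of log2(TPM + 1) over the 10 cDC libraries, which fall into 4 groups and share the subset contrast. For Xbp1 they were Ilrun (r = 0.973), Dnajb11, an ER cochaperone (0.970), and Stt3a, a subunit of oligosaccharyltransferase (0.970). Over the 6 pDC libraries the same genes had r of 0.52, −0.70 and 0.30. For Hspa5 they were Pkp4 (0.980), Fam102b (0.969) and Nus1 (0.963), and for Ddit3 Cln8 (0.942), Armc9 (0.941) and Cenpj (0.940). These are descriptions over libraries of 4 groups.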

How the data were processed

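Per the labels, ribosomal RNA was removed with RNase H before library making. RNA of sorted splenic pDCs, cDC1s and cDC2s was sequenced as single-end reads of 50 bases on a BGISEQ-500. The authors dropped reads with adapters, low quality or many unknown bases with SOAPnuke and used HISAT2 2.0.4, Bowtie2 2.2.5 and RSEM 1.2.12 (versions also per the submitters' processing notes), against mouse transcripts whose release is not given in the sources used here. The deposited TPM values (transcripts per 1 M within a library) and the deposited FPKM values (fragments per kilobase and 1 M mapped reads) came in separate tables for pDCs (17128 genes) and cDCs (17721 genes). Every value column was mapped to a library by its name, and 0 were left unmapped. The files hold no counts, and reads per library were estimated from the spacing of low FPKM values.

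Genes were tested with limma 3.58.1 in R 4.3.3 (lmFit, eBayes with trend, two-sided) on log2(TPM + 1), over genes with a mean of at least 1 TPM, 11299 in pDCs and 11411 in cDCs. The fit of pDCs used 6 libraries and that of cDCs 10, with a mean for each of 4 groups. Benjamini-Hochberg adjustment covered all genes tested. The thresholds, an adjusted p of 0.01 and a log2 difference of 0.5, follow the study's methods, which applied a count model. Libraries are pools of mice, so p-values measure the spread between pools. The cKO pools held more mice than the WT pools, so pool size goes with genotype, while the fit assumes 1 shared spread. Scripts were tested on simulated data.

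The members, gene lists and tests were chosen with earlier results of these data known. Named list genes were the up to 4 called genes with the largest differences in each direction. Of the marker lists, 1 gene of the B and plasma cell list was not in the tables. In pDCs the residuals of libraries with the same replicate number correlated across genes (r = 0.31, 0.39 and 0.21), so the numbers pair them, while the labels do not say what a number stands for. Promoters came from RefSeq entries on GRCm38.p6 and strands and exon overlaps from GENCODE vM21. Alternatives were FPKM, median-of-ratios and quantile scaling, a pseudocount of 0.1, a minimum of 5 TPM or none, no trend, an adjusted p of 0.05 without a fold limit, a replicate block and leaving out each library.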

Additional observations from a re-analysis of the deposited data

Results flagged for a closer look

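The effect of the cKO on Phgdh, an ATF4 target, differed between the subsets by a test of the difference itself. It was higher in cDC1s than in cDC2s by 2.61 on the log2 scale (SE 0.25, adjusted p 4.17e-04, limma), with adjusted p values of 1.81e-04 to 0.00582 over 19 alternatives. Phgdh was at 11.1 and 10.9 TPM in WT and 63.2 and 58.1 TPM in cKO cDC1s, and at 9.97, 11.7 and 16.4 TPM in WT and 9.70, 11.8 and 9.52 TPM in cKO cDC2s. It was higher in 2 of 2 cKO cDC1 libraries, and the cDC2 libraries of the genotypes overlapped.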

How the results depend on the processing

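Of 1620 values of single genes under an alternative, 1517 kept their direction and their side of the threshold and 33 changed sign, none of them called. In pDCs Hsp90b1 turned to −0.036 with quantile normalization. In cDC1s the cKO effect on Xbp1 turned to −0.00160 with FPKM, −0.11 with median-of-ratios scaling and −0.074 with quantile normalization, and that on Atf4 to −0.066 with median-of-ratios scaling. Between WT subsets Atf4 turned to 0.10 with median-of-ratios scaling. The difference of the effects on Dnajb9 between subsets turned to −0.088 with FPKM, −0.21 with median-of-ratios scaling and −0.14 with quantile normalization. The cause of these changes was not tested.

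Leaving out 1 library gave, for cKO against WT in pDCs, −0.085 to 0.00114 for Xbp1, −0.027 to 0.21 for Atf4, −0.11 to 0.41 for Ddit3, −0.060 to 0.27 for Hspa5, −0.032 to 0.085 for Hsp90b1 and −0.00391 to 0.26 for Sdf2l1. It gave −0.056 to 0.18 for Xbp1 and −0.14 to 0.35 for Atf4 in cDC1s, and −0.031 to 0.16 for Xbp1 in cDC2s. Between WT subsets it gave −0.34 to 0.15 for Atf4 and −0.47 to 0.079 for Dnajb9. For the difference of effects it gave −0.12 to 0.12 for Xbp1, −0.00261 to 0.41 for Ern1 and −0.34 to 0.20 for Dnajb9.

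Shares of all genes called under the alternatives are not given here, so the counts that follow have no share to be read against. With an adjusted p of 0.05 and no fold limit, members called became 5 in cDC1s (1 otherwise), 1 in cDC2s (0) and 1 for the difference of effects (0). List genes became 3 in pDCs (1), 63 in cDC1s (26), 23 in cDC2s (6), 79 between WT subsets (50) and 9 for the difference of effects (1). With median-of-ratios scaling, members called in cDC1s became 0 and list genes 17 in cDC1s and 10 in cDC2s. Without the filter, members in cDC1s became 0 and list genes 0 in pDCs and 1 in cDC2s, with more genes tested. Without the trend list genes in pDCs became 0, and with FPKM those for the difference of effects became 2.

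Leaving out 1 library, members called ranged from 0 to 0 in pDCs and cDC2s and for the difference of effects, from 0 to 3 in cDC1s and from 3 to 4 between subsets of either genotype. List genes ranged from 0 to 1 in pDCs, 11 to 30 in cDC1s, 1 to 9 in cDC2s, 33 to 53 between WT subsets, 50 to 70 between cKO subsets and 1 to 2 for the difference of effects.

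With the replicate number as a block, list genes called were 2 in pDCs and 2 in cDC2s, and members called were 0 in both, 1 in cDC1s, 5 between WT subsets and 4 between cKO subsets. With the block Atf6 lost its call in cDC1s (adjusted p 0.0132) and Sdf2l1 gained one (adjusted p 0.00792), while Xbp1 was called between WT subsets (0.53, adjusted p 0.00561). Between subsets the block joined cDC1 and cDC2 libraries of both genotypes by number alone. The blocked calls there rest on a pairing that was not shown. Same-numbered WT and cKO libraries had residuals correlated at −0.23 in cDC1s and at −0.25, 0.25 and −0.16 in cDC2s. With 2 libraries in each cDC1 group, crossed numbers must give the same value with the other sign, 0.23. In cDC2s WT library 3 and cKO library 1 had 0.47. These values cannot tell unpaired libraries from libraries paired under other numbers. Libraries of 1 genotype were not compared across subsets, so a pairing of cDC1s with cDC2s was not tested. Pairing the cDC1 numbers crosswise, an alternative added after seeing the data, gave 1 member and 24 list genes.

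The 2 libraries in each cDC1 group and the pooling of mice limit the precision, and at these depths a transcript of 2000 bases with 3 reads lies at 0.141 to 0.185 TPM.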
